A study of Mus musculus with 9 samples.

Results

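The genes described here are the integrin chains of T cells: Itgae, which encodes αE or CD103, Itgb7, Itga4, Itgb1, Itgal, Itgb2, Itgav, Itgb8, Itga1 and Itga6. They were chosen by symbol, as the array features that the platform annotation pairs with exactly 1 of these names, and where a gene had several such features the brightest over the 9 arrays was used. All 10 genes were found, of 22180 genes on the array, and 9 of the 10 passed the filter on dim genes described below. RNA came from Foxp3+ regulatory T cells (Tregs) of small and large intestinal lamina propria, the connective tissue layer beneath the gut epithelium, isolated on a cell sorter by the red fluorescence of a Foxp3 reporter. The 3 groups, of 3 arrays each, were C57BL/6 mice of the genotypes Y3/CD103-/-, Y3 and WT. The Y3/CD103-/- mice carry Y3 as well as the loss of CD103, and there was no group without CD103 alone, so the effect of CD103 loss is read only on the Y3 background. The labels do not describe the Y3 alteration, and the series title names IL-2Rβ beside CD103 as what gene expression depends on. The labels give neither the age of the mice, nor whether a replicate is 1 mouse or a pool, so p-values measure the spread between these arrays, which may be technical.

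Integrins are pairs of an α and a β chain that hold cells to other cells or to the matrix, and a chain reaches the surface only with a partner. αE pairs with β7 to bind E-cadherin on gut epithelium, and α4 pairs with β7 to bind MAdCAM-1 on gut vessels or with β1 to bind VCAM-1 and fibronectin. αL pairs with β2 to form LFA-1, the receptor for ICAM-1, and αv with β8 to release TGF-β from its latent form, a step by which Tregs are known to activate this cytokine. α1 and α6 pair with β1 to bind collagen and laminin. TGF-β signals through SMAD proteins are known to induce Itgae in T cells, and Runx3 is known to act on it.

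RefSeq promoter windows, the 250 bases before a gene's start on GRCm38.p6, were at hand for 6 of the 10 genes, and those of Itgae, Itga6, Itgal and Itgb2 were not in the table. The windows of Itgb8, whose signal stood above WT in both Y3 groups, and of Itga4, whose 3 groups lay close together, are printed as 2 contrasting examples, and neither gene passed the test in any comparison. Capitals mark the matches, on either strand, to the letters TGTGGT (RUNX), CAGAC (SMAD), GTGTGA (T-box), TTCNNNGAA (STAT) and CCGGAA (ETS), and the matches do not overlap each other. The Itgb8 window is chr12:119238277-119238526 on the minus strand and the Itga4 window chr2:79255176-79255425 on the plus strand, both written 5′ to 3′ along the gene.
Itgb8: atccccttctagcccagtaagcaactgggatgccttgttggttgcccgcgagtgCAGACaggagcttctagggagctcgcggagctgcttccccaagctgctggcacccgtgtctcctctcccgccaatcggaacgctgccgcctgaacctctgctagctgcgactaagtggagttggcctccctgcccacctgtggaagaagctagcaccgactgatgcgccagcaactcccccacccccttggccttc
Itga4: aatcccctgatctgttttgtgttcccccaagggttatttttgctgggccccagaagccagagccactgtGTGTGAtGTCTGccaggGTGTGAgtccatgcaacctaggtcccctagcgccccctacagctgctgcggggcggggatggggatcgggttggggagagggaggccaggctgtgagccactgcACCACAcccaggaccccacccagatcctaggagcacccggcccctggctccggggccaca

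The Itgb8 window held 1 SMAD match, 196 bases before the start, and none to the other letters. The Itga4 window held 1 RUNX match on the minus strand 60 bases before the start, 1 SMAD match on the minus strand at 174 and 2 T-box matches at 181 and 164. Of 32851 windows of the same length, with those of 1 chromosome left out, 14% held the RUNX letters, 42.2% the SMAD letters, 12.3% the T-box letters, 7.02% the STAT letters and 12.0% the ETS letters. Among the other 4 windows, SMAD letters matched 2 times in Itgb7, 3 times in Itgb1, once in Itga1 and 0 times in Itgav, and the other letters 0 times. These matches describe letters and are not binding sites.

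Signal was given as log2 values, and each array had 39137 features with an array median between 3.15 and 3.23. A gene was tested with limma if its signal stood above the array median in 3 or more of the 9 samples, which 12792 genes did, and it was said to rise or fall at an adjusted p under 0.05. Only changes of 1 feature between groups are compared, because log2 signals of different features are not on 1 scale of abundance. All 12 T cell and Treg markers on the array, Foxp3 among them, were above the array median on every array, and Foxp3 stood at 9.51 to 9.62 in Y3/CD103-/-, 9.35 to 9.68 in Y3 and 9.29 to 9.48 in WT. The spread of the values over all features was widest on Y3 arrays 1 and 3 (SD 1.87 and 1.88, against 1.70 to 1.77 on the other 7). These were also the most alike pair of replicates (r = 0.984 over the tested genes). The median log2 difference over all tested genes was -0.10 for Y3/CD103-/- versus Y3, 0.04 for Y3/CD103-/- versus WT and 0.15 for Y3 versus WT, and it became 0.05, 0.02 and -0.02 when each array was centred on the median of its tested genes, an alternative chosen after seeing the data.

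Itgae was the integrin gene with the largest differences in all 3 comparisons. Its log2 signal was 6.64, 6.05 and 6.86 on the Y3/CD103-/- arrays, 9.35, 9.11 and 9.51 on the Y3 arrays and 8.06, 7.87 and 7.85 on the WT arrays. The 3 groups did not overlap, with Y3 highest and Y3/CD103-/- lowest. The means were 6.52 ± 0.42, 9.32 ± 0.20 and 7.93 ± 0.12 in that order of genotypes (SD, n = 3 each).

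**Figure D1:**
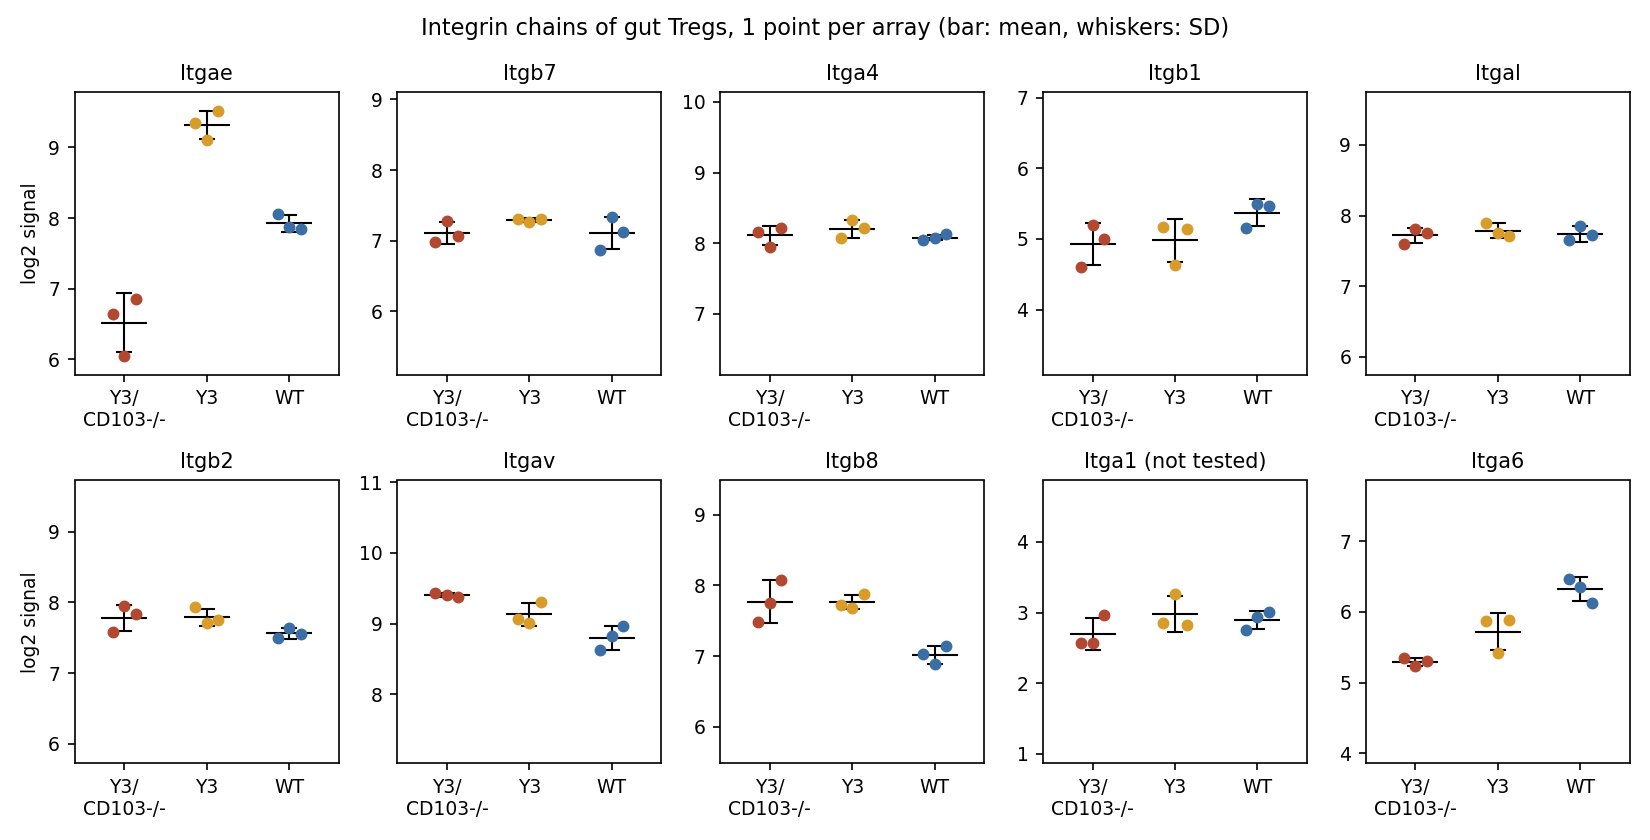
Log2 signal (vertical axis) of the 10 integrin genes on each array, in columns for Y3/CD103-/-, Y3 and WT, with the group mean as a bar and the SD as whiskers; every panel spans the same log2 range, placed at the level of its gene. Itgae takes 3 separate levels, Itgb8 lies higher in both Y3 groups than in WT, Itga6 lies lower, and the points of Itgb7, Itga4 and Itgal overlap between groups.

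Itgae is the targeted gene, so its level checks the labels. It fell 7.00-fold in Y3/CD103-/- against Y3 (log2 -2.81 ± 0.21 (SE), 95% interval -3.28 to -2.34, limma adjusted p = 0.000679). Of the 12792 genes tested in this comparison it was the only one to pass, so that 0.00782% of genes fell and 0.0% rose, and 9.9% differed at an unadjusted p under 0.05. Itgae kept its call whichever array was removed (adjusted p from 0.00118 to 0.0113). All 3 arrays labelled Y3/CD103-/- had less Itgae signal than any other array. Signal stayed above the array median there, and the sources used here do not give which stretch of the gene the feature reads or which stretch was removed.

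Against WT, Itgae fell 2.66-fold in Y3/CD103-/- (log2 -1.41, 95% interval -1.88 to -0.94, limma adjusted p = 0.0159). In Y3 it rose 2.63-fold against WT (log2 1.4, 95% interval 0.93 to 1.87, limma adjusted p = 0.0169). The fall lost its call when WT array 1 was removed (adjusted p = 0.0538) and kept it when any 1 of the other 8 was. The rise kept its call in 5 of 9 such refits and lost it on removal of Y3 array 1 (0.0948), Y3 array 3 (0.113), WT array 2 (0.0571) or WT array 3 (0.0509). Centred on the tested genes, the rise was 1.23 log2 (adjusted p = 0.0254) and the fall -1.43 (adjusted p = 0.0105). In these bulk samples a higher share of CD103+ cells and more Itgae RNA per cell cannot be told apart.

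Itgb7, which encodes the only known partner chain of αE, did not pass in any comparison. Its log2 signal was 6.98, 7.28 and 7.07 in Y3/CD103-/-, 7.31, 7.26 and 7.31 in Y3 and 6.87, 7.34 and 7.12 in WT, and the groups overlapped in each comparison, for Y3/CD103-/- and Y3 through Y3/CD103-/- array 2. The difference was -0.18 for Y3/CD103-/- versus Y3 (95% interval -0.55 to 0.18, limma adjusted p = 0.729), 0.00 for Y3/CD103-/- versus WT (-0.36 to 0.36, adjusted p = 0.999) and 0.19 for Y3 versus WT (-0.18 to 0.55, adjusted p = 0.585). The intervals leave room for a decrease of 0.55 in Y3/CD103-/- versus Y3 and an increase of 0.55 in Y3 versus WT. In each comparison they leave out a change as large as that of Itgae.

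The change of Itgae minus that of Itgb7, taken array by array, was -2.62 for Y3/CD103-/- versus Y3, -1.41 for Y3/CD103-/- versus WT and 1.21 for Y3 versus WT. The arrays of the groups did not overlap in any of the 3. Because Itgae is the targeted gene in Y3/CD103-/-, the separations that involve this genotype were set by the design. An exact 2-sided permutation test gave p = 0.1 each time, which is the smallest p that 3 arrays against 3 allow. Adjustment over 9 such tests on 3 pairs of partner chains made it 0.225.

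**Figure D2:**
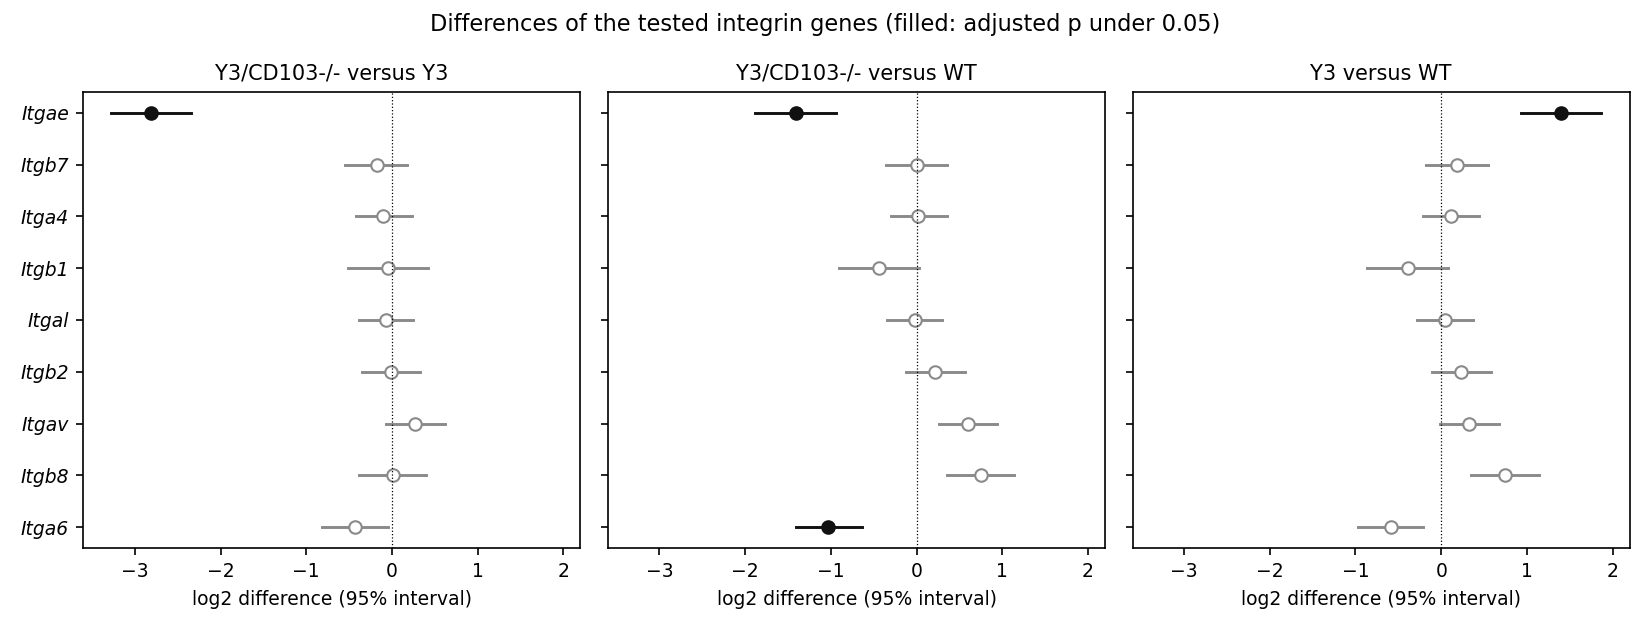
Log2 difference (horizontal axis) with its 95% interval for the 9 tested integrin genes in the 3 comparisons, which share arrays; filled points passed at an adjusted p under 0.05. Itgae is the filled point in every panel, at -2.81, -1.41 and 1.4, and Itga6 is the other one, at -1.03 in Y3/CD103-/- versus WT.

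Itga4, the α chain of the gut homing receptor α4β7, was close to level across the groups. It stood at 8.16, 7.95 and 8.21 in Y3/CD103-/-, 8.07, 8.33 and 8.21 in Y3 and 8.04, 8.08 and 8.13 in WT, with overlap between all groups. Its differences were -0.10 (95% interval -0.42 to 0.23), 0.02 (-0.30 to 0.35) and 0.12 (-0.21 to 0.44) for Y3/CD103-/- versus Y3, Y3/CD103-/- versus WT and Y3 versus WT, with limma adjusted p of 0.866, 0.968 and 0.711. Itga4 and Itgb7 differed in their changes by 0.09, 0.02 and -0.07 in the same comparisons (exact permutation p = 0.7, 0.9 and 0.8). A further feature, shared with the neighbouring gene Cerkl, was left out.

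Itgb1, the β chain of the matrix receptors, stood at 4.60, 5.20 and 5.0 in Y3/CD103-/-, 5.17, 4.63 and 5.14 in Y3 and 5.15, 5.49 and 5.47 in WT. Both Y3 groups overlapped WT, each through its highest array. Its difference was -0.44 in Y3/CD103-/- versus WT (95% interval -0.90 to 0.03, limma adjusted p = 0.41), -0.39 in Y3 versus WT (-0.86 to 0.08, 0.371) and -0.05 in Y3/CD103-/- versus Y3 (-0.51 to 0.42, 0.964). None of the 3 passed, and in Y3/CD103-/- versus WT the interval reached a decrease of 0.90.

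Itgal, which encodes the α chain of LFA-1, stood at 7.60, 7.81 and 7.76 in Y3/CD103-/-, 7.90, 7.76 and 7.71 in Y3 and 7.65, 7.86 and 7.72 in WT. The groups overlapped, and every difference lay between -0.07 and 0.05 (95% intervals from -0.39 to 0.37, limma adjusted p from 0.893 to 0.966). Itgb2, the β chain of LFA-1 and of other leukocyte integrins, stood at 7.58, 7.95 and 7.83 in Y3/CD103-/-, 7.93, 7.71 and 7.75 in Y3 and 7.49, 7.64 and 7.55 in WT. All 3 Y3 arrays lay above all 3 WT arrays, while 1 of the Y3/CD103-/- arrays fell within the WT range. The difference of Itgb2 was 0.23 in Y3 versus WT (95% interval -0.11 to 0.58, limma adjusted p = 0.462), 0.22 in Y3/CD103-/- versus WT (-0.12 to 0.57, 0.581) and -0.01 in Y3/CD103-/- versus Y3 (-0.35 to 0.33, 0.989). It was 0.07 in Y3 versus WT with arrays centred on the tested genes.

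Signs of differences this small depended on the scaling. Centring on the tested genes turned those of Itga4 (0.05), Itgb1 (0.10), Itgal (0.08) and Itgb2 (0.14) in Y3/CD103-/- versus Y3, and those of Itga4 (-0.05) and Itgal (-0.12) in Y3 versus WT. None of these passed under any scaling tried.

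Itgb8, the β chain that with αv releases active TGF-β, lay higher in both Y3 groups than in WT and did not pass in either. It stood at 7.48, 7.75 and 8.08 in Y3/CD103-/-, 7.73, 7.68 and 7.88 in Y3 and 7.03, 6.89 and 7.15 in WT. Each array of both Y3 groups exceeded every WT array, and the 2 Y3 groups overlapped. The difference from WT was 0.75 in Y3/CD103-/- (1.68-fold, 95% interval 0.36 to 1.14, limma adjusted p = 0.0888) and 0.74 in Y3 (1.67-fold, 0.35 to 1.14, adjusted p = 0.0891). Between Y3/CD103-/- and Y3 it was 0.01 (-0.39 to 0.40, adjusted p = 0.994). With single arrays removed, Itgb8 passed in 0 of 9 refits (adjusted p from 0.0738 to 0.228 in Y3/CD103-/- versus WT and 0.0728 to 0.331 in Y3 versus WT). With a variance trend and robust shrinkage in limma both differences passed (adjusted p = 0.00767 and 0.00914), and with array weights that of Y3 passed (0.0435). Centred on the tested genes the difference in Y3 was 0.58 (adjusted p = 0.181).

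**Figure D3:**
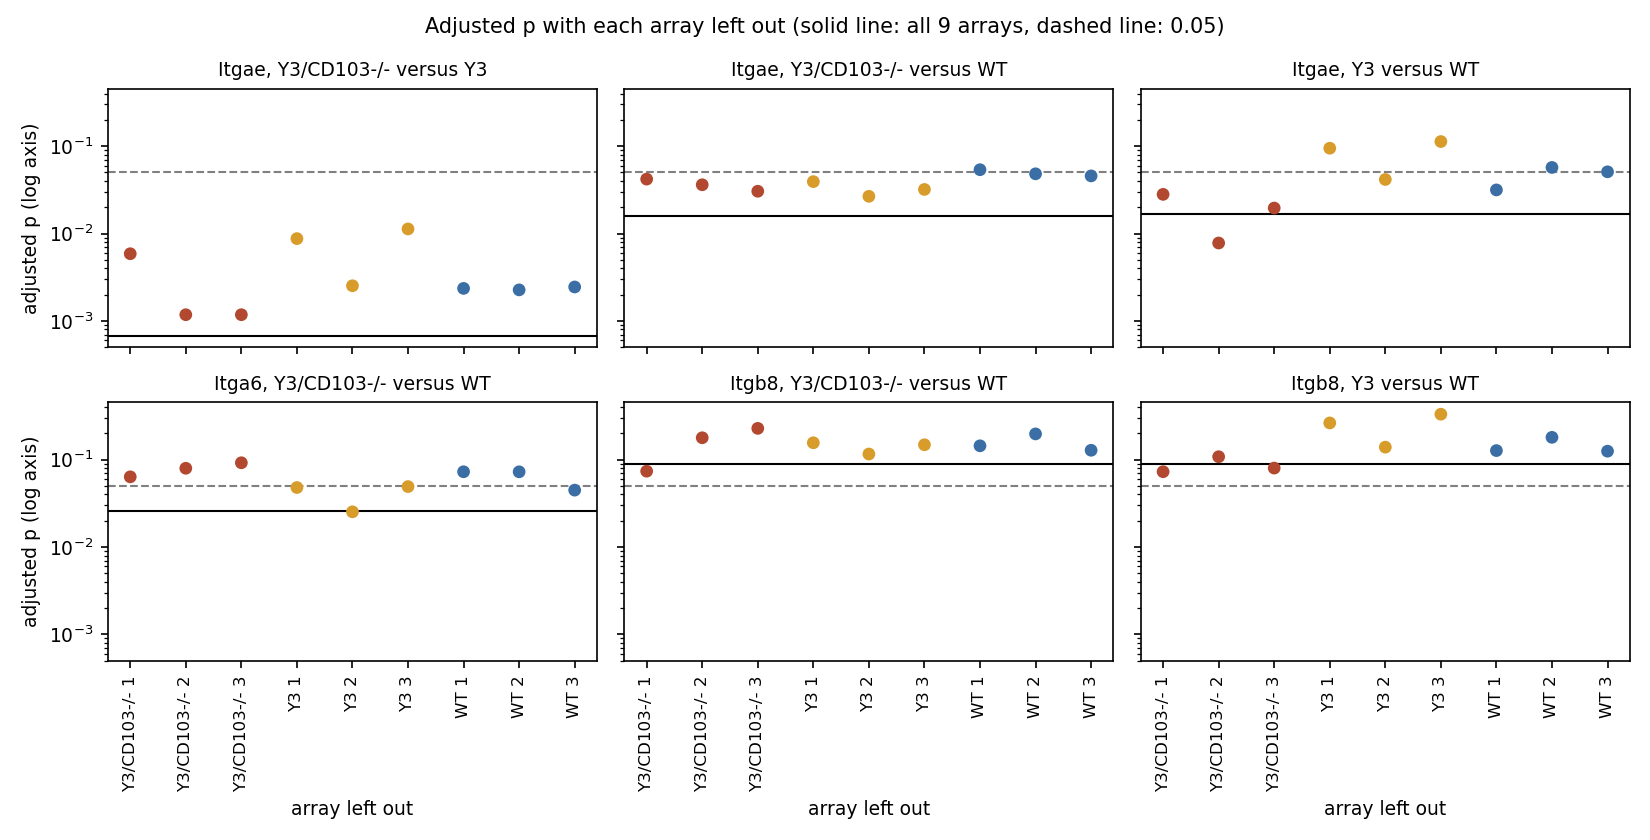
Adjusted p from limma on a log axis with each array left out in turn (horizontal axis), for Itgae in 3 comparisons, Itga6 in 1 and Itgb8 in 2; the solid line is the value with all 9 arrays and the dashed line 0.05. Itgae in Y3/CD103-/- versus Y3 stays at or below 0.0113, Itga6 reaches 0.0921 and Itgb8 lies above the dashed line in every fit.

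Itgav, the α partner of β8 and of several other β chains, gave 2 features that disagree in size. The brighter one stood at 9.43, 9.40 and 9.38 in Y3/CD103-/-, 9.07, 9.01 and 9.31 in Y3 and 8.62, 8.83 and 8.96 in WT, so that the 3 groups did not overlap. Its difference was 0.60 in Y3/CD103-/- versus WT (1.52-fold, 95% interval 0.26 to 0.94, limma adjusted p = 0.111), 0.33 in Y3 versus WT (-0.01 to 0.67, 0.312) and 0.27 in Y3/CD103-/- versus Y3 (-0.07 to 0.62, 0.569). On the dimmer feature the means were 8.14 ± 0.12 in Y3/CD103-/-, 8.10 ± 0.02 in Y3 and 8.01 ± 0.02 in WT (SD, n = 3 each), and the same differences were 0.13, 0.09 and 0.04. The order of the group means was the same on both features, and the differences on the dimmer one were smaller in all 3 comparisons. With the mean of both features the difference in Y3/CD103-/- versus WT was 0.37 (adjusted p = 0.28), and with a variance trend and robust shrinkage that of the brighter feature passed (adjusted p = 0.00377). The change of Itgav minus that of Itgb8 was -0.15, -0.41 and 0.27 in those comparisons (exact permutation p = 0.7, 0.1 and 0.4, which adjustment over the 9 tests made 0.9, 0.225 and 0.72).

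**Figure D4:**
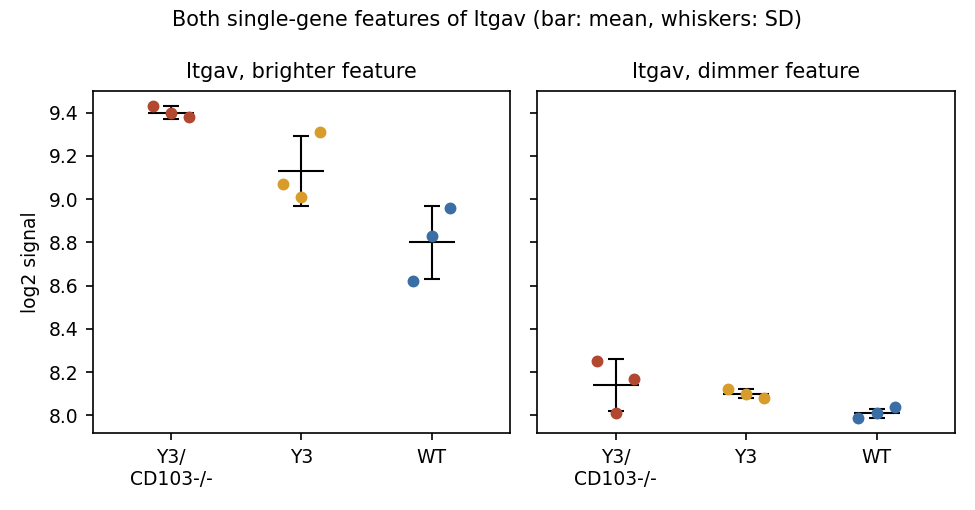
Log2 signal (vertical axis) of the 2 features of Itgav on each array of Y3/CD103-/-, Y3 and WT, with the group mean as a bar and the SD as whiskers. On the brighter feature the group means are 9.40, 9.13 and 8.80, and on the dimmer one 8.14, 8.10 and 8.01.

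Itga6, the α chain of laminin receptors, fell in Y3/CD103-/- against WT. Its log2 signal was 5.35, 5.23 and 5.30 in Y3/CD103-/-, 5.87, 5.42 and 5.88 in Y3 and 6.47, 6.36 and 6.13 in WT, and the 3 groups did not overlap. The fall was 2.04-fold (log2 -1.03, 95% interval -1.41 to -0.64, limma adjusted p = 0.0256). In Y3 versus WT the difference was -0.59 (1.51-fold lower, -0.97 to -0.21, adjusted p = 0.135) and in Y3/CD103-/- versus Y3 it was -0.43 (-0.82 to -0.05, adjusted p = 0.462). Neither of these passed. The fall in Y3/CD103-/- kept its call in 4 of 9 refits with single arrays removed. It lost it on removal of Y3/CD103-/- array 1 (adjusted p = 0.0636), 2 (0.0797) or 3 (0.0921), or of WT array 1 (0.0727) or 2 (0.0726). Centred on the tested genes it was -1.04 (adjusted p = 0.0116), and the difference in Y3 versus WT was -0.76 (adjusted p = 0.0512).

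α6 integrin is also a chain of epithelial cells, and epithelial transcripts moved in the same direction. Of the 21 epithelial markers on the array, 17 to 19 were above the array median in Y3/CD103-/-, 16 to 19 in Y3 and 19 to 21 in WT. Their summed linear signal was 398 to 1507 in Y3/CD103-/-, 401 to 574 in Y3 and 973 to 2502 in WT. On Y3/CD103-/- array 1 the sum was 1507, above WT arrays 1 and 3 at 973 and 1042, and Itga6 stood at 5.35 there against 6.47 and 6.13. The 20 tested markers all lay lower in both Y3 groups than in WT, with median differences of -0.64 in Y3/CD103-/- and -1.08 in Y3, and 0 passed (6 and 12 lay lower at an unadjusted p under 0.05 in limma). Of all 12792 tested genes, 5742 and 3779 lay lower, 684 and 460 of them at an unadjusted p under 0.05. The markers with the lowest p were Fabp2, a fatty acid binding protein of enterocytes, the chloride exchanger gene Slc26a3 and the carbonic anhydrase gene Car1. Fabp2 differed by -2.60 in Y3/CD103-/- versus WT (limma adjusted p = 0.0669) and -2.74 in Y3 versus WT (0.0557). The part of epithelial RNA in the difference of Itga6 was not tested.

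Itga1, the α chain of a collagen receptor found on resident T cells of tissues, was too dim to test, since it exceeded the array median on 1 of the 9 arrays. It stood at 2.57, 2.57 and 2.96 in Y3/CD103-/-, 2.86, 3.27 and 2.82 in Y3 and 2.75, 2.94 and 3.01 in WT. The groups overlapped, and the values lay below the array median on the other 8 arrays.

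Taking the 9 tested genes of the 10 as a group, 0 rose and Itgae fell in Y3/CD103-/- versus Y3. In Y3/CD103-/- versus WT, 0 rose and Itgae and Itga6 fell, where 0.555% of all tested genes rose and 0.281% fell. In Y3 versus WT, Itgae rose and 0 fell, where 0.618% of all tested genes rose and 0.172% fell. At an unadjusted p under 0.05 there were 2 genes of the 9 in Y3/CD103-/- versus Y3 (Itgae and Itga6), 4 in Y3/CD103-/- versus WT (those and Itgav and Itgb8), against 13.3% of all tested genes, and 3 in Y3 versus WT (Itgae, Itgb8 and Itga6), against 17.0%. The groups did not overlap for 3, 4 and 5 of the 9 genes in these comparisons, beside 18.6%, 17.4% and 23.9% of all tested genes. The median difference of the 9 genes was -0.07, 0.00 and 0.19, close to the medians over all tested genes given above. The 3 comparisons share arrays, so their counts are not independent.

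A further 16 integrin chains were listed. Of them 15 were on the array, 8 were tested, and 0 passed in any comparison (0, 0 and 2 at an unadjusted p under 0.05 in Y3/CD103-/- versus Y3, Y3/CD103-/- versus WT and Y3 versus WT, in limma). The shares of all tested genes at that p were 9.9%, 13.3% and 17.0%. Itga2, a collagen receptor chain, differed by 0.65 in Y3 versus WT (adjusted p = 0.171), and Itgax, a chain of dendritic cells and macrophages, by -0.66 (adjusted p = 0.243). Itga3, a laminin receptor chain, differed by 0.49 in Y3/CD103-/- versus Y3 (adjusted p = 0.601).

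Genes that switch integrins to their active form or link them to the cytoskeleton did not pass either. Of 39 listed, 35 were on the array and 30 tested, and 0 rose or fell in any of the 3 comparisons. At an unadjusted p under 0.05, limma gave 0 higher and 2 lower in Y3/CD103-/- versus Y3, 0 and 1 in Y3/CD103-/- versus WT and 7 and 0 in Y3 versus WT. Over all 12792 tested genes the same counts were 228 higher and 1039 lower, 1011 and 684, and 1719 and 460, so the direction of the listed genes in the first and last comparison is also that of the array as a whole. Vav1, an exchange factor that acts downstream of the T cell receptor, stood at 5.17, 5.07 and 5.24 in Y3/CD103-/-, 6.08, 5.87 and 5.69 in Y3 and 5.83, 5.83 and 5.23 in WT, with a difference of -0.72 in Y3/CD103-/- versus Y3 (adjusted p = 0.314). Dok1, an inhibitory adaptor, differed by 0.75 (adjusted p = 0.117) and Skap1, an adaptor that couples the T cell receptor to LFA-1, by 0.53 (adjusted p = 0.171) in Y3 versus WT.

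Among regulators of Itgae transcription, the TGF-β, SMAD, RUNX and T-box genes, 18 of 18 listed were tested. In Y3 versus WT, Tbx21 and Runx3 rose and 0 fell while 0 passed in the other comparisons. Of all tested genes, 0.618% rose and 0.172% fell in Y3 versus WT. Without adjustment limma gave p under 0.05 for 4 higher and 1 lower regulator in Y3 versus WT, 5 and 2 in Y3/CD103-/- versus WT and 1 and 2 in Y3/CD103-/- versus Y3. Over all 12792 tested genes the same counts were 1719 and 460, 1011 and 684, and 228 and 1039. Tbx21, which encodes the T helper factor T-bet, stood at 4.88, 4.52 and 4.64 in Y3/CD103-/-, 5.06, 4.79 and 5.15 in Y3 and 3.93, 4.15 and 3.72 in WT. Both Y3 groups lay above every WT array. It rose by 1.07 log2 in Y3 (limma adjusted p = 0.0238) and differed by 0.75 in Y3/CD103-/- (0.0881). Runx3, a factor that acts on Itgae, stood at 6.29, 6.37 and 6.36 in Y3/CD103-/-, 6.64, 6.26 and 6.57 in Y3 and 5.66, 5.83 and 5.47 in WT. It rose by 0.83 in Y3 (adjusted p = 0.0455) and differed by 0.69 in Y3/CD103-/- (0.0872). Runx3 and Tbx21 each overlapped between Y3/CD103-/- and Y3. Itgae is the targeted gene in Y3/CD103-/-, so its low signal there was set by the design and cannot be compared with that of these regulators.

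The rise of Runx3 kept its call in 0 of 9 refits with single arrays removed (adjusted p from 0.0596 to 0.221), and lost it after centring on the tested genes (0.0688) and quantile normalization (0.0759). That of Tbx21 kept its call in 6 and lost it on removal of Y3 array 1 (0.124), Y3 array 3 (0.148) or WT array 3 (0.0694). Gata3, the T helper 2 factor, stood at 7.03, 6.94 and 6.82 in Y3/CD103-/-, 6.77, 6.90 and 6.85 in Y3 and 7.59, 7.56 and 7.45 in WT. Its differences from WT of -0.60 in Y3/CD103-/- (adjusted p = 0.0847) and -0.69 in Y3 (0.0551) did not pass.

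**Figure D5:**
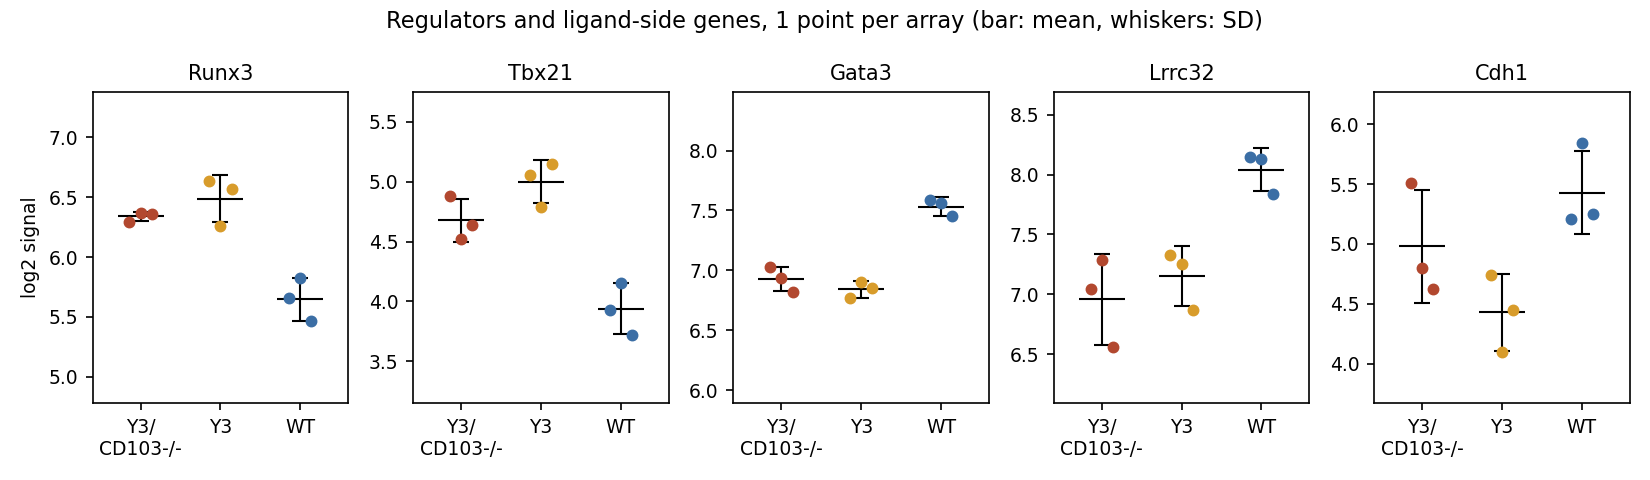
Log2 signal (vertical axis) of Runx3, Tbx21, Gata3, Lrrc32 and Cdh1 on each array of Y3/CD103-/-, Y3 and WT, with the group mean as a bar and the SD as whiskers. Runx3 and Tbx21 lie higher and Gata3 and Lrrc32 lower on every array of both Y3 groups than on any WT array, and Cdh1 does so only for Y3.

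Among the ligands of these integrins and genes that present them, 28 were listed, 27 were on the array and 17 tested. Lrrc32, which encodes GARP, the protein that holds latent TGF-β on the Treg surface where αvβ8 acts on it, was the only one to pass. It stood at 7.04, 7.29 and 6.56 in Y3/CD103-/-, 7.33, 7.25 and 6.87 in Y3 and 8.15, 8.13 and 7.84 in WT. It fell by 1.07 in Y3/CD103-/- versus WT (limma adjusted p = 0.0498), and its difference in Y3 versus WT of -0.89 did not pass (0.0898). The fall kept its call in 0 of 9 refits with single arrays removed (0.0552 to 0.146), and lost it after quantile normalization (0.0506) and centring on the tested genes (0.054). On every array of both Y3 groups Lrrc32 lay below, and Itgb8 above, all 3 WT arrays. At an unadjusted p under 0.05, limma gave 3 higher and 1 lower of the 17 in Y3/CD103-/- versus Y3, 2 and 4 in Y3/CD103-/- versus WT and 0 and 7 in Y3 versus WT. Over all 12792 tested genes the same counts were 228 and 1039, 1011 and 684, and 1719 and 460. After adjustment, 0.281% of all tested genes fell in Y3/CD103-/- versus WT.

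Thrombospondin 1 (Thbs1), a matrix protein, differed by -1.49 (adjusted p = 0.0609) and Npnt, a basement membrane ligand of integrins, by -0.71 (0.0922) in Y3 versus WT. Thbs1 was dim, at 3.21, 2.47 and 3.42 in Y3, close to or below the array median, against 4.38, 4.57 and 4.61 in WT. Cdh1, which encodes E-cadherin, the ligand of αEβ7, was chosen for mention after its values were seen and is also in the epithelial list. It stood at 5.51, 4.80 and 4.62 in Y3/CD103-/-, 4.74, 4.10 and 4.45 in Y3 and 5.21, 5.84 and 5.25 in WT. Its differences from WT, -0.46 in Y3/CD103-/- (adjusted p = 0.508) and -1.0 in Y3 (0.112), did not pass.

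Markers of other cells were also set beside the integrin genes, and those named by their place above or below the array median were chosen after their values were seen. Macrophage, monocyte and dendritic cell genes, 22 on the array, summed to 578 to 694 in Y3/CD103-/-, 436 to 545 in Y3 and 760 to 1207 in WT. Lyz1, chosen after its values were seen, was the brightest of these genes on WT arrays 1 and 2, at 8.64 and 8.53 log2. It stood at 4.94 on WT array 3 and averaged 3.51 in Y3/CD103-/- and 5.19 in Y3. Its differences from WT, -3.86 in Y3/CD103-/- and -2.18 in Y3, did not pass (limma adjusted p = 0.123 and 0.311). Median differences of the 18 tested were -0.09 (7 higher, 11 lower) and -0.46 (3 and 15) in the same order. Linear sums without Lyz1 were not taken. Of the 22, 15 to 19 were above the array median in Y3/CD103-/-, 14 to 17 in Y3 and 15 to 19 in WT. Csf1r, Lyz2 and the C1q genes were above it on all 9 arrays, and Cd14 and the integrin chain gene Itgam on 0. The class II gene H2-Aa was the 1 of 18 tested that fell, in Y3 versus WT by 1.80 (adjusted p = 0.0264, kept in 4 of 9 refits with single arrays removed), while Csf1r (-1.0, 0.0761) and Cd68 (0.77, 0.0721) did not pass there. Of all tested genes, 0.172% fell in that comparison. CD8, γδ and NK cell genes, 13 on the array, summed to 2972 to 3242 in Y3/CD103-/-, 2771 to 3150 in Y3 and 1347 to 1472 in WT. The 3 of 10 tested that rose, against WT in both Y3 groups, were Nkg7, Gzma and Gzmb, genes of cytotoxic granules that activated T cells also use. With single arrays removed, all 3 kept their call in 9 of 9 refits in Y3/CD103-/- versus WT. In Y3 versus WT, Nkg7 kept it in 9, Gzma in 8 and Gzmb in 5. Of all tested genes, 0.555% rose in Y3/CD103-/- and 0.618% in Y3 against WT. These 3 genes make up most of the sums, which are of linear signal. Gzma averaged 10.38, 10.30 and 9.09 log2 in Y3/CD103-/-, Y3 and WT, Gzmb 10.27, 10.08 and 9.20, and Nkg7 8.58, 8.67 and 6.65. No other gene of the list averaged above 5.46 in any group. Of the 13, 9 to 10 were above the array median in Y3/CD103-/-, 8 to 10 in Y3 and 8 to 9 in WT. Cd8b1, Ncr1, Prf1, Fcer1g and Tyrobp were above it on all 9 arrays, Cd8a on 4, and Klrk1 and Klrd1 on 0. CD103 is borne by gut CD8 T cells and some dendritic cells too, and the part of either cell type in the Itgae signal was not tested.

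B and plasma cell genes summed to 470 to 821 in Y3/CD103-/-, 611 to 869 in Y3 and 737 to 957 in WT, and stromal genes to 175 to 210, 165 to 180 and 184 to 199 in the same order. None of the 9 and 7 tested passed in limma, with 4 B cell genes lower in Y3 versus WT and 1 stromal gene to either side at an unadjusted p under 0.05. Over all 12792 tested genes, 1719 were higher and 460 lower at that p in Y3 versus WT. Blnk (adjusted p = 0.169) and Jchain (0.206) in Y3 versus WT and Ighm (0.31) in Y3/CD103-/- versus WT had the lowest p of the first list. Dcn (0.289) in Y3 versus WT and Acta2 (0.279) and Col1a1 (0.389) in Y3/CD103-/- versus WT had those of the second. Among T cell markers, Il2ra, the IL-2 receptor α chain, was the 1 of 12 that changed. It fell by 0.86 in Y3/CD103-/- versus WT (limma adjusted p = 0.0258), a call kept in 1 of 9 refits with single arrays removed (0.0463 to 0.0809). The difference of Il2ra was -0.65 in Y3 versus WT (adjusted p = 0.079) and -0.22 in Y3/CD103-/- versus Y3 (0.644), and neither passed. Of all tested genes, 0.281% fell in Y3/CD103-/- versus WT. Icos and Ikzf2 did not pass in any comparison (lowest adjusted p 0.201 and 0.228).

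Likeness to Itgae over the 9 arrays was measured by Pearson's r as a description, since 3 genotypes set most of the spread. The tested genes most like it were Celf1 (r = 0.972), Pnpt1 (0.959), Rufy2 (0.957), Ccdc58 (0.956) and Tuba1b (0.944), and the most opposed were Plau (-0.931), Foxm1 (-0.902) and Aff1 (-0.893). Celf1 averaged 5.52 in Y3/CD103-/-, 5.86 in Y3 and 5.74 in WT, a far smaller range than that of Itgae. The genes named above were picked as the extremes of the tested genes, so they give no yardstick for the integrin genes. The low Itgae values in Y3/CD103-/-, where it is the targeted gene, also shape every r. Among the integrin genes, r with Itgae was 0.43 for Itga4 and Itga6, 0.38 for Itgb7, 0.24 for Itgal, 0.04 for Itgb1, 0.02 for Itgb8, -0.03 for Itgb2 and -0.41 for Itgav.

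For Itgb7 the most like genes were Them4 (0.943), Cyp4v3 (0.942), Isca2 (0.941), Ei24 (0.939) and Cstb (0.935), and the most opposed Pigz (-0.891), Batf3 (-0.890) and Ptgir (-0.869). Among the integrin genes Itgal (0.78) and Itgb2 (0.62) were the most like Itgb7. None of these 3 genes passed in a comparison between groups.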

How the data were processed

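RNA of gut Tregs from Y3/CD103-/-, Y3 and WT mice was amplified, labelled with biotin and hybridized to 9 Affymetrix Gene ST2.0 arrays for mouse, per the labels' protocols. The authors deposited log2 signals made with RMA (version not given), per the submitters' processing notes. RMA scales arrays to a common distribution of probes, so a shift shared by most genes can be lost. The sources used here give neither its settings nor a genome build.

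Of 39137 features, 23521 named 1 gene, 1814 several and 13802 none, by the platform annotation, and a RefSeq gene table (GRCm38.p6) held 23328 of the first and changed 0 symbols. The brightest feature stood for a gene (1082 of 22180 genes had several). Genes above the array median on at least 3 of 9 arrays, 12792 in all, were fitted with limma 3.58.1 (lmFit, eBayes) in R 4.3.3, in 1 model of group means over 9 arrays without a block (10.8 degrees of freedom). Tests were 2-sided with Benjamini-Hochberg adjustment over all tested genes within a comparison. Errors are SD over arrays or limma's standard error, and the number of arrays limits precision. The fit was tested on simulated data.

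The integrin genes, the 10 other gene lists (194 genes) and the tests were chosen with earlier results of these data known. Named were all 10 integrin genes, in each list those that passed, filled to 3 by the smallest p, and the genes of highest and lowest r to Itgae (5 and 3) and Itgb7, without predicted, small RNA, olfactory and antigen receptor genes. Alternatives changed the filter, the features, the scaling, the variance model, the arrays fitted, the block and the threshold, and left out each array.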

Additional observations from a re-analysis of the deposited data

How the results depend on the processing

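Among refits of single genes under the alternatives, 643 kept direction and side of the threshold, 82 lost a call, 4 gained one and 31 changed sign, and the cause was not tested. The count of integrin genes that changed in Y3/CD103-/- versus Y3, 1, became 2 at an unadjusted p under 0.05. In Y3/CD103-/- versus WT the count of 2 became 1 with no filter on dim genes, 4 with a variance trend and robust shrinkage, 0 with only the 2 groups fitted, 1 with the replicate block, 4 at an unadjusted p under 0.05, and 0 to 2 with an array left out. In Y3 versus WT the count of 1 became 2 with a variance trend, with array weights and at an adjusted p under 0.1, 3 at an unadjusted p, 0 with Y3 arrays 1 and 3 averaged, and 0 to 1 with an array left out. With only 2 groups fitted, Itgae and Itga6 in Y3/CD103-/- versus WT had an adjusted p of 0.0773 and 0.0774, and without the filter Itga6 had 0.0537.

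Deviations from the group means were little correlated between arrays of the same replicate number (r from -0.044 to 0.107 over the tested genes). Such values cannot settle whether the numbers pair the samples. With replicate numbers as a block Itga6 lost its call (limma adjusted p = 0.0533), as did Runx3 (0.0992), Tbx21 (0.0576), Gzmb in Y3 (0.0593) and Il2ra (0.0533). No other call changed under the block among the genes named.

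Differences that never passed changed sign. In Y3/CD103-/- versus Y3, centring on the tested genes gave 0.054 for Itga4, 0.102 for Itgb1, 0.08 for Itgal and 0.139 for Itgb2, quantile normalization 0.079 for Itgb1 and 0.051 for Itgb2, and averaging Y3 arrays 1 and 3 gave 0.041 and 0.012. With an array left out they ranged from -0.222 to 0.119 for Itgb1, -0.092 to 0.093 for Itgb2 and -0.147 to 0.153 for Itgb8. In Y3/CD103-/- versus WT, Itgb7 had -0.049 (quantile), -0.017 (tested genes) and -0.001 (array weights), and Itga4 -0.006 (quantile), with -0.118 to 0.116 for Itgb7, -0.028 to 0.101 for Itga4 and -0.072 to 0.038 for Itgal with an array left out. In Y3 versus WT, Itga4 had -0.048 (tested genes) and Itgal -0.051 (quantile), -0.121 (tested genes) and -0.01 to 0.104.

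Counts over all genes moved too. In Y3/CD103-/- versus WT, 71 rose and 36 fell, against 212 and 97 with a variance trend and 12 and 5 with 2 groups. In Y3 versus WT, 79 and 22 became 268 and 78, and 46 and 17, and centring on the tested genes gave 46 and 54. They were 10 and 2 without Y3 array 1, 7 and 1 without Y3 array 3, and 11 and 1 with these 2 arrays averaged. In Y3/CD103-/- versus Y3, 0 and 1 became 1 and 9 with a variance trend.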
